A study of Mus musculus with 2 samples.

Results

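Collagen chain genes were examined in RNA sequencing of primary mouse chondrocytes, with a control and a *Myl3*-KO library. The set was every row of the expression table whose symbol was Col, a type number, the letter a and a chain number, and it held 43 of the 22156 rows. All 43 were protein-coding genes found in GENCODE M21 on mouse build GRCm38. *Myl3* encodes a myosin light chain, and the study asked how its loss affects chondrocytes. The labels describe primary chondrocytes of rib cartilage, whereas the study's methods name both rib and articular cartilage. The methods also describe newborn mice, a C57BL/6J background and monolayer culture in DMEM/F12 medium with serum. Per the methods, the *Myl3*-KO cells came from *Col2a1-Cre; Myl3* flox/flox mice, in which the *Col2a1* promoter drives Cre and floxed *Myl3* is deleted in the cells that use this promoter. The controls were *Myl3* flox/flox littermates per the methods, whereas the labels call them WT, so both groups would carry the floxed allele if the methods apply. There was 1 library per genotype, and how many animals went into each was not given in the sources used here.

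A collagen molecule is a triple helix of 3 α chains, which are modified in the endoplasmic reticulum, secreted as procollagen, trimmed and crosslinked. Fibrillar collagens form the rope-like fibrils of tissues, with type I in bone, skin and tendon and types II, IX and XI in hyaline cartilage. FACIT chains sit on the surface of fibrils, type IV and its relatives build basement membranes, type VI forms beaded microfilaments around cells, and type X marks hypertrophic cartilage. Chondrocytes kept in monolayer are known to lose type II collagen and gain type I.

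The libraries totalled 17612435 expected counts for control and 13477977 for *Myl3*-KO, and a count of 3, taken as the floor of detection, equals 0.170 and 0.223 CPM, the count divided by the library total and multiplied by 1000000. *Myl3* itself had 0 counts in both libraries, so it does not check the genotype labels. The chondrocyte label was checked against 14 non-collagen markers, of which *Snorc* was not found in the table. The cartilage matrix genes *Acan*, *Matn1*, *Matn3*, *Hapln1*, *Cnmd* and *Epyc* had 0 counts in both libraries. The chondrogenic factor *Sox9* had 866 counts in control and 480 in *Myl3*-KO, and *Sox5* had 893 and 684. The list of fibroblast and perichondrium genes was uneven. *S100a4* had 26518 and 21321 counts and *Prrx1* 24671 and 22182, whereas *Thy1* had 0 in both, *Fap* 1 and 0, and *Dpt* 5 and 2. Defining markers of cartilage were thus listed at 0, against the cell type label, and the libraries are called here by genotype alone. Whether these zeros come from the cells or from the gene models and counting behind the table was not tested, and the same holds for the low counts of *Col2a1* and *Col4a1*.

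Levels between libraries were compared as the log2 ratio of CPM, *Myl3*-KO over control, and the brackets after a ratio give its 95% exact counting interval. The interval covers the sampling of reads only. With 1 library per genotype there was no replicate check, and each ratio compares these libraries, not the genotypes. A chain was called higher or lower past counting error when its interval excluded 0, and past 2-fold when the ratio also reached 1 in size. A gene was tested if its counts over both libraries summed to at least 10, which left 12431 genes with a median log2 ratio of 0.017. Levels of single chains are compared with each other in FPKM, which scales reads by gene length, whereas shares of counts and CPM are not scaled by length. In bulk RNA, fewer cells of a type and less RNA per cell cannot be told apart.

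Collagen chains took 2.18% of the control library (95% Clopper-Pearson interval 2.17 to 2.19%) and 2.65% of the *Myl3*-KO library (2.64 to 2.65%). The summed counts were 383857 and 356543, a log2 ratio of 0.28 (0.27 to 0.29), and 0.34 (0.33 to 0.35) without *Col1a2*, the chain with the most counts. Of the 43 chains, 28 were tested, 9 had at least 1 count but fewer than 10, and 6 had 0 counts in both libraries. Of the tested chains, 15 were higher in *Myl3*-KO past counting error, against 22.2% of all tested genes, and 1 was lower, against 20.1% of all tested genes. The other 12 did not pass in either direction. Intervals are narrower for genes with more counts, and the shares over all tested genes were not matched for counts. The median log2 ratio of the tested chains was 0.26, with a range from -0.61 to 2.52 and a positive sign in 25 of them.

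Most of these differences were small. Past 2-fold, 2 chains were higher and 0 were lower, against backgrounds of 1.38% and 0.499%. *Col4a2*, one of them, had 5 counts in control and was tested only through its 22 in *Myl3*-KO, and with at least 10 counts asked of each library 1 chain was past 2-fold. At a log2 limit of 0.5, 8 chains were higher and 0 lower, against 4.68% and 1.62% of all tested genes. Genes with many counts seldom differed by that much, since 76 of the 6385 genes with at least 1000 counts (1.19%) were higher at the 0.5 limit. *Col6a1*, *Col6a2* and *Col6a3* were 3 of those 76. Counting error leaves out the spread between cultures. An assumed spread was used as an alternative, but the share of all tested genes passing it was not computed, so its counts have no background. With a preset coefficient of variation of 0.2 in edgeR's exact test, at an unadjusted p under 0.05, 3 chains were higher (*Col4a2*, *Col5a3* and *Col6a2*) and 0 lower, and with 0.4 there was 1, the same sparse *Col4a2*.

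**Figure D1:**
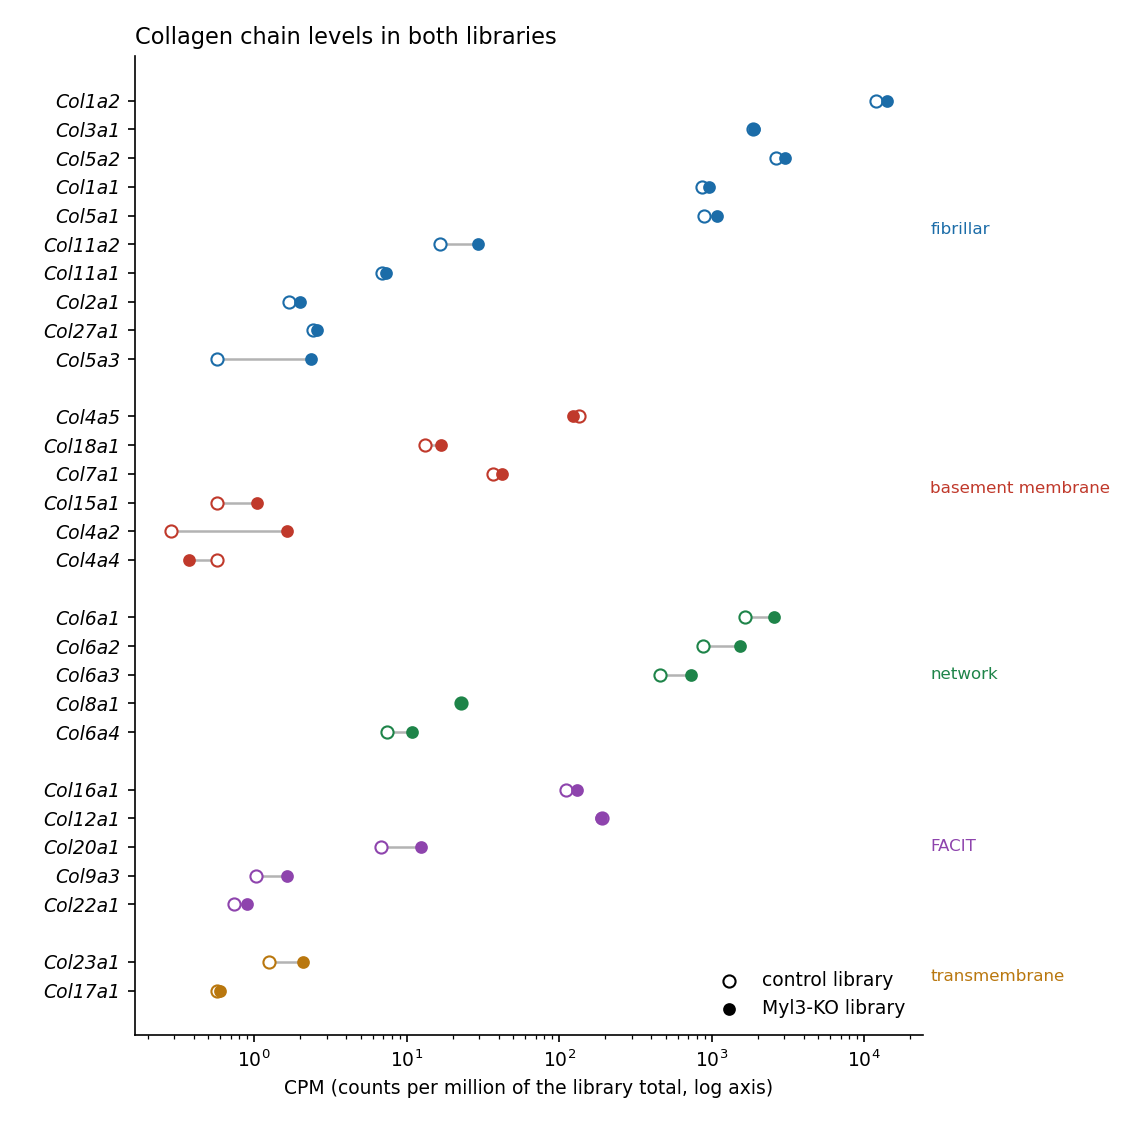
Levels of the 28 tested collagen chains in CPM on a log axis, grouped by structural class, with open points for the control library and filled points for the *Myl3*-KO library. Each point is 1 library, CPM is not scaled by gene length, and the 3 main type VI chains sit apart from their control points while *Col3a1*, *Col8a1* and *Col12a1* overlap theirs.

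The fibrillar class held 11 chains and 83.9% of the collagen counts in the control, against 79.6% in *Myl3*-KO. Of its 10 tested chains, 6 were higher past counting error, 0 were lower and 4 did not pass, with a median log2 ratio of 0.22. Over all tested genes, 22.2% were higher and 20.1% lower. The classes hold few chains, and differences from these shares were not tested. *Col1a2*, the α2 chain of type I collagen (chr6:4504814-4541544), had 211652 counts in control and 189213 in *Myl3*-KO, which is 12017 and 14039 CPM. Its log2 ratio was 0.22 (0.215 to 0.233). *Col5a2*, a chain of the type V collagen that limits fibril diameter, had 46323 and 41040 counts, a ratio of 0.21 (0.19 to 0.23). *Col5a1*, its partner, had 15779 and 14702 counts, a ratio of 0.28 (0.25 to 0.32). These abundant chains thus differed in the same direction by similar small amounts. *Col1a1*, the α1 chain of type I, had 15130 and 12887 counts, a ratio of 0.15 (0.12 to 0.19). *Col3a1*, the chain of the type III collagen of soft connective tissue, had 32845 and 25338 counts, a ratio of 0.012 (-0.012 to 0.035) that did not pass. The interval of *Col3a1* ended below the intervals of *Col1a1*, *Col1a2*, *Col5a1* and *Col5a2*.

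*Col1a2* was the highest chain per length, at 2252.90 FPKM in control and 2629.69 in *Myl3*-KO, and *Col3a1* had 448.50 and 438.58, the second level in control but below *Col6a1* and *Col5a2* in *Myl3*-KO. *Col1a1* stood far below its trimer partner, at 144.87 and 161.24 FPKM. The usual type I molecule holds more α1 than α2 chains, yet the FPKM of *Col1a2* was 15.6 times that of *Col1a1* in the control and 16.3 times in *Myl3*-KO. The difference between their log2 ratios was 0.070 (0.035 to 0.105). The cause of this imbalance was not tested, and it was present in both libraries.

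The cartilage fibrillar chains were scarce, among them the gene whose promoter drives Cre. *Col2a1*, the type II chain that defines hyaline cartilage (chr15:97975602-98004695), had 30 counts in control and 27 in *Myl3*-KO, or 0.35 and 0.41 FPKM, a log2 ratio of 0.23 (-0.57 to 1.03). *Col11a1*, which joins type II in cartilage fibrils, had 121 and 99 counts, a ratio of 0.096 (-0.30 to 0.49). *Col11a2*, its partner, had 293 and 395 counts, a ratio of 0.82 (0.60 to 1.04). Only the last of these cartilage chains passed counting error, and *Col11a2* minus *Col11a1* was 0.72 (0.26 to 1.18) on the log2 scale. *Col5a3*, the third type V chain (chr9:20770050-20815067), was past 2-fold but rested on few counts, 10 in control and 32 in *Myl3*-KO, a ratio of 2.06 (1.004 to 3.25). *Col27a1*, a fibrillar chain of cartilage, had 43 and 35 counts and did not pass, and *Col24a1* had 0 and 1.

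The network class, which forms filaments and lattices rather than fibrils, held 8 chains. Past counting error, 4 of its 5 tested chains were higher and 0 lower, beside 22.2% and 20.1% of all tested genes. Its summed log2 ratio was 0.70 (0.68 to 0.72), and its share of the collagen counts was 13.8% in control and 18.4% in *Myl3*-KO. Nearly all of it was type VI collagen. *Col6a1* (chr10:76708792-76726168) had 28929 counts in control and 34747 in *Myl3*-KO, a ratio of 0.65 (0.63 to 0.67). *Col6a2* (chr10:76595762-76623630) had 15333 and 20630 counts, a ratio of 0.81 (0.78 to 0.84). *Col6a3* (chr1:90765923-90843971) had 8100 and 9909 counts, a ratio of 0.68 (0.63 to 0.72). Each of these chains of the type VI trimer had more raw counts in the *Myl3*-KO library although that library was the smaller one. *Col6a4*, a less abundant type VI chain, had 130 and 146 counts, a ratio of 0.55 (0.20 to 0.91), and *Col6a6* had 0 in both.

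Summed over *Col6a1*, *Col6a2* and *Col6a3*, type VI had 52362 counts in control and 65286 in *Myl3*-KO, with a log2 ratio of 0.70 (0.69 to 0.72). The ratio of all other collagen chains was lower by 0.50 (0.49 to 0.52) on the log2 scale, a comparison chosen after the values were seen. Without type VI the collagen sum had a ratio of 0.20 (0.19 to 0.21). In FPKM, type VI chains made up 16.7% of the collagen total in control and 22.3% in *Myl3*-KO. The shares of type I were 57.9% and 55.3%, of type III 10.8% and 8.69%, and of type V 12.2% and 11.7%. All other types, 32 chains, held 2.37% and 2.08%. Type VI was the one of these groups whose share was higher in *Myl3*-KO. A lower share was not always a lower level. The summed FPKM was higher in *Myl3*-KO for type I (2397.77 and 2790.93), type V (503.67 and 589.78) and all other types (98.27 and 105.2). For type III it was lower (448.5 and 438.58).

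**Figure D2:**
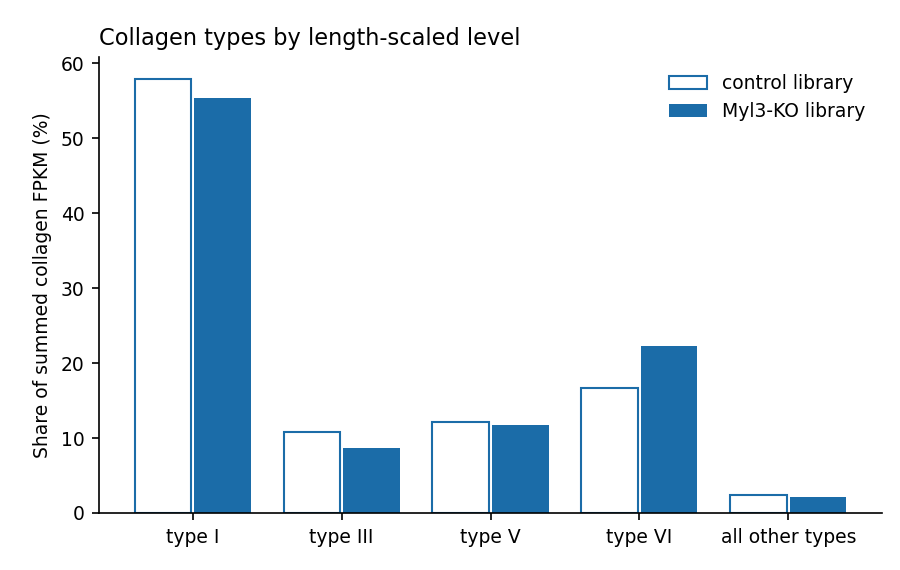
Share of the summed collagen FPKM, in percent, taken by each collagen type in the control library (open bars) and the *Myl3*-KO library (filled bars), without error bars since each bar is 1 library. Type VI goes from 16.7% to 22.3% while type I goes from 57.9% to 55.3%. The bars are shares, and the summed FPKM of type I was 2397.77 in control and 2790.93 in *Myl3*-KO.

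No tested gene beside the type VI loci was called past the 0.5 limit. Within 500 kb of *Col6a1* and *Col6a2*, which lie 85161 bases apart on the same strand, 9 other genes were tested. Of these, 5 were higher and 0 lower past counting error, against 22.2% and 20.1% of all tested genes. Their median ratio was 0.14, against 0.017 over all tested genes. The ratios ran from -0.14 to 0.35, the highest being that of the collagen chain *Col18a1*. Within 500 kb of *Col6a3*, 5 genes were tested, with 0 higher and 2 lower past counting error beside the same shares. Their median was -0.029, with a range from -0.43 to an uncalled 1.80. The bases just upstream of each first exon are shown because the 3 chains moved together. They come from RefSeq on GRCm38.p6, 5′ to 3′ on the gene's strand, and exclude annotated exons. Capitals mark matches of any of 4 motifs or of their reverse complements. These were the GC box with the letters GGGCGG, the CCAAT box with the letters in its name, and the TATA box with the letters TATAAA. The fourth was TGGGAA, the core recognised by RBPJ, the DNA-binding partner of Notch receptors, a pathway that the study examined. The *Col5a3* bases are added as those of a chain past 2-fold.
*Col6a1* (chr10:76726169-76726294, minus strand): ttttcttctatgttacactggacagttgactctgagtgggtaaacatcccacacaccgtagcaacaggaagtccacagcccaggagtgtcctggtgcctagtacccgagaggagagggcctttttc
*Col6a2* (chr10:76623631-76623880, minus strand): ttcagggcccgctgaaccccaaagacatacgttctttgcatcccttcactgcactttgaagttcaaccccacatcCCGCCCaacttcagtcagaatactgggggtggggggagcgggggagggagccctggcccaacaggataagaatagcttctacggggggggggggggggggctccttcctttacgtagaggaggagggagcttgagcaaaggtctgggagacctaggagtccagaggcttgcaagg
*Col6a3* (chr1:90843972-90844221, minus strand): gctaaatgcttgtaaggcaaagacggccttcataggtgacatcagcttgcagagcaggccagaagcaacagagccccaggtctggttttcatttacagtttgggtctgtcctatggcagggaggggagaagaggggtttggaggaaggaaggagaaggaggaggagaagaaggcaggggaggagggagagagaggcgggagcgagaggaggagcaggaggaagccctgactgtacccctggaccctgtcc
*Col5a3* (chr9:20815068-20815317, minus strand): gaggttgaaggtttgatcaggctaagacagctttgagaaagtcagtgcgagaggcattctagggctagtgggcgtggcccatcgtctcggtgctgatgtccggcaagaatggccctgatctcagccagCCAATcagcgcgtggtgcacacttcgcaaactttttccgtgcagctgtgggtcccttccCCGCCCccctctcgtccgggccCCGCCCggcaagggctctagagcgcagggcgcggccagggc

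The type VI stretches shared none of these motifs. The *Col6a2* bases held 1 GC box, those of *Col6a1* and *Col6a3* held 0 of the motifs, and those of *Col5a3* held 1 CCAAT box and 2 GC boxes. Full windows of 300 bases, 250 before and 50 after each RefSeq start, were matched for 34 of the 43 chains, giving 37 windows. A GC box was found in 59.5% of the collagen windows and 35.7% of all 32851 windows, beside a median GC content of 59.7% and 52.7%. A TATA box was found in 13.5% and 13.6%, a CCAAT box in 35.1% and 37.4%, and the RBPJ core in 32.4% and 25.6%. The motifs were searched on both strands, matches of different motifs could overlap, and a match describes the sequence only.

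The basement membrane class held 9 chains and under 1% of the collagen counts, at 0.853% in control and 0.704% in *Myl3*-KO. Of its 6 tested chains, 3 were higher past counting error, 1 was lower and 2 did not pass. These few calls stand beside 22.2% higher and 20.1% lower over all tested genes. The summed log2 ratio of the class was 0.0028 (-0.073 to 0.078). *Col4a5*, a type IV chain encoded on the X chromosome, had the most counts of the class, 2363 in control and 1665 in *Myl3*-KO. Its ratio of -0.12 (-0.21 to -0.028) made it the only collagen chain called lower, a call lost with a 99% interval. *Col7a1*, the chain of anchoring fibrils, had 646 and 572 counts, a ratio of 0.21 (0.046 to 0.38). *Col18a1*, the source of endostatin, had 231 and 226 counts, a ratio of 0.35 (0.083 to 0.63). Both calls were lost when the median of genes of like GC content was subtracted, which gave 0.11 for *Col7a1* and 0.26 for *Col18a1*. *Col15a1*, a relative of *Col18a1*, had 10 and 14 counts, a ratio of 0.87 (-0.40 to 2.20) that did not pass.

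The type IV genes are arranged head to head in pairs, and of these 6 genes *Col4a5* alone was well above the floor. *Col4a2* (chr8:11312805-11449287) had 5 counts in control and 22 in *Myl3*-KO, a ratio of 2.52 (1.09 to 4.28), the other collagen chain past 2-fold. *Col4a1*, its neighbour and usual trimer partner, had 1 and 2 counts and was not tested. In control the pair was at 0.05 FPKM for *Col4a1* and 0.04 for *Col4a2*, and in *Myl3*-KO at 0.02 and 0.25. The control value of *Col4a1* rests on 1 count and that of *Col4a2* on 5, so their near equality there carries little weight. Type IV α1 and α2 are common in basement membranes, yet both genes were close to the floor here. *Col4a5* had 26.10 and 24.46 FPKM, while *Col4a6*, which starts 1308 bases away, had 0.02 and 0.03 FPKM from 2 and 3 counts. *Col4a4* had 10 and 5 counts, a ratio of -0.61 (-2.51 to 1.07), and *Col4a3* had 7 and 2, at 0.06 and 0.05 FPKM in control. The short shared starts are shown because they are all that separates or joins these pairs in the annotation, the first as the gap between *Col4a4* and *Col4a3* and the second as the overlap of *Col4a1* and *Col4a2*, on the same build and with the same capitals as above.
*Col4a4* to *Col4a3* (chr1:82586850-82586920, minus strand): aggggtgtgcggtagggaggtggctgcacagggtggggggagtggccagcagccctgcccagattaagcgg
*Col4a1* and *Col4a2* (chr8:11312805-11312826, plus strand): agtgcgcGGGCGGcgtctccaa

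The gap of 71 bases held 0 of the motifs and the overlap of 22 bases held 1 GC box. Where genes overlap, as *Col4a1* and *Col4a2* do, reads cannot be told apart without strand, and strand was not given in the sources used here. Exon overlap with another counted gene was found for 4 chains, the other 2 being *Col10a1* with *Nt5dc1* and *Col9a3* with *Tcfl5*.

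The FACIT class held 9 chains, of which 5 were tested. 2 were higher past counting error, 0 were lower and 3 did not pass, with a summed ratio of 0.11 (0.051 to 0.17). These few calls stand beside 22.2% higher and 20.1% lower over all tested genes. *Col16a1*, a fibril-associated chain, had 1937 counts in control and 1750 in *Myl3*-KO, a ratio of 0.24 (0.15 to 0.33). *Col12a1*, which links fibrils in dense connective tissue, had 3345 and 2528 counts, a ratio of -0.018 (-0.093 to 0.057) that did not pass. *Col20a1* had 120 and 167 counts, a ratio of 0.86 (0.52 to 1.21), the largest among the tested FACIT chains. The type IX chains, which coat type II fibrils in cartilage, were near the floor, with *Col9a3* at 18 and 22 counts, *Col9a2* at 0 and 2 and *Col9a1* at 0 and 1. *Col22a1* had 13 and 12 counts, and its ratio was 0.27 (-0.99 to 1.52) from counts but -1.72 from the deposited FPKM of 0.33 and 0.10. *Col14a1* and *Col19a1* had 0 counts in both libraries.

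The transmembrane chains and the 2 chains of no other class were close to absent. Of 4 transmembrane chains, *Col23a1* had 22 counts in control and 28 in *Myl3*-KO, a ratio of 0.73 (-0.12 to 1.61), and *Col17a1*, of the epithelial hemidesmosome, had 10 and 8. Neither passed counting error. *Col13a1* and *Col25a1* had 0 in both, as had *Col28a1*, and *Col26a1* had 0 and 1. Among the other network chains, *Col8a1*, a chain of vessel and cornea matrix, had 397 and 307 counts, a ratio of 0.015 (-0.20 to 0.23), and *Col8a2* had 1 and 0. *Col10a1*, the marker of hypertrophic chondrocytes, had 1 and 5 counts and was not tested. A count of 0 leaves room for a level up to the floor given above.

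**Figure D3:**
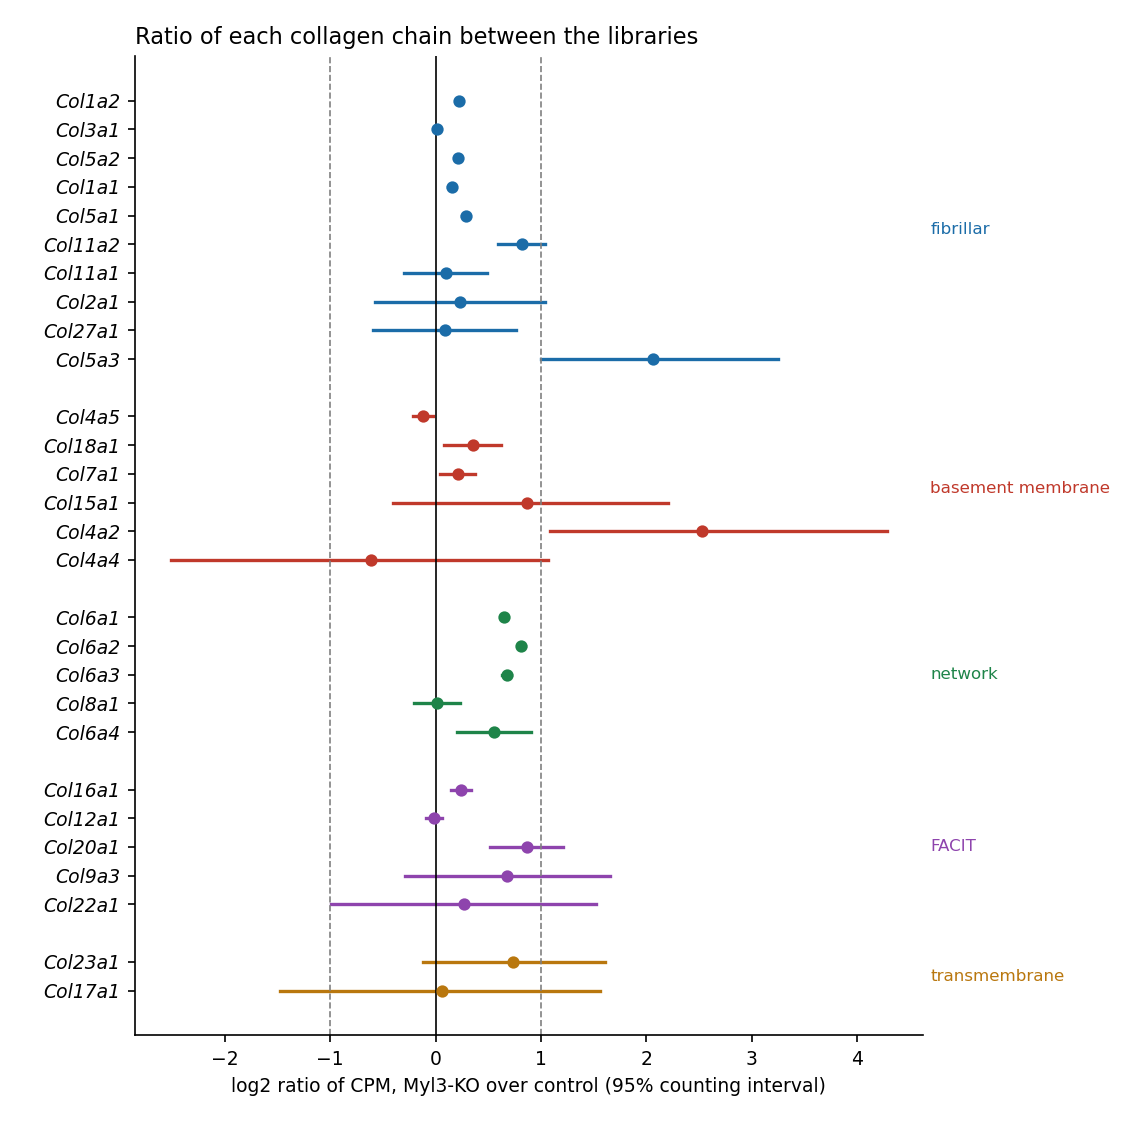
Log2 ratio of CPM, *Myl3*-KO over control, of the 28 tested collagen chains, with bars for the 95% counting interval and dashed lines at 2-fold. *Col4a2* and *Col5a3* lie past the right line with wide bars, and *Col6a1*, *Col6a2* and *Col6a3* lie between 0.65 and 0.81 with bars shorter than or about the width of their points.

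Chains that assemble together differed by varying amounts. The ratio of *Col6a3* minus that of *Col6a1* was 0.026 (-0.022 to 0.075), and their FPKM stood at 5.46 to 1 in the control and 5.56 to 1 in *Myl3*-KO in favour of *Col6a1*. *Col6a2* exceeded *Col6a1* by 0.16 (0.13 to 0.20), which took the FPKM of *Col6a1* from 1.85 to 1.65 times that of *Col6a2*. *Col5a2* minus *Col5a1* was -0.073 (-0.11 to -0.035). These pairs differed by less than the 0.50 between type VI and the other chains, whereas *Col11a2* minus *Col11a1* was 0.72 and *Col5a3*, at 2.06, stood far above both other type V chains on few counts. *Col3a1* and *Col5a2*, which lie 24614 bases apart on chromosome 1, differed by 0.20 (0.17 to 0.23). *Col11a1* minus *Col2a1* was -0.14 (-1.04 to 0.77), too wide to place.

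**Figure D4:**
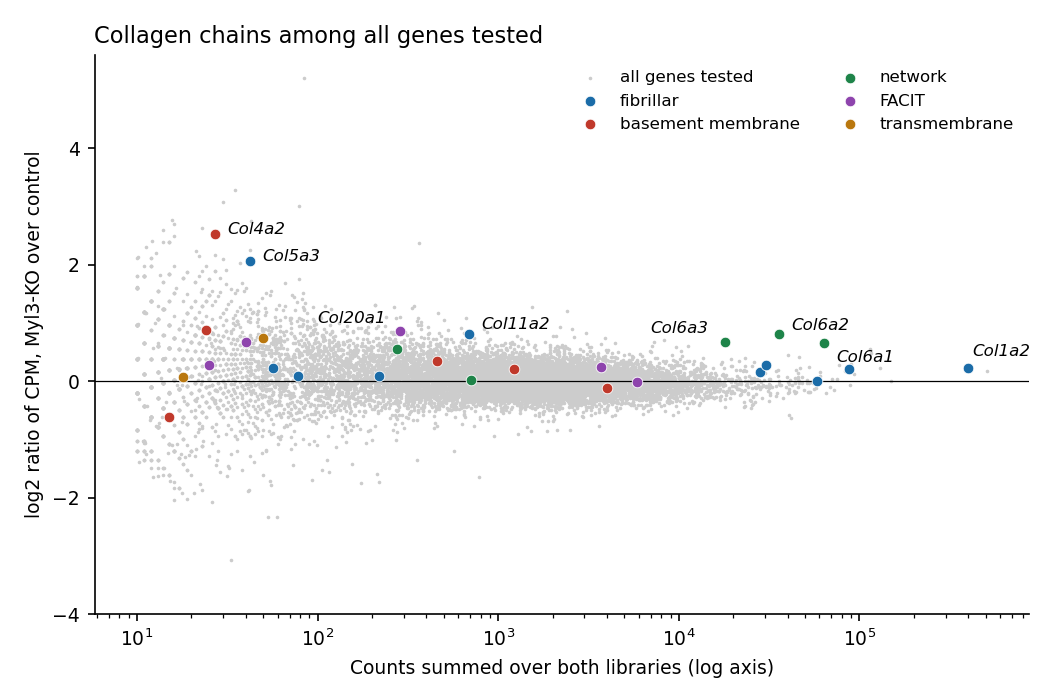
Log2 ratio of CPM, *Myl3*-KO over control, against the counts summed over both libraries on a log axis, for all 12431 tested genes (grey) and the 28 tested collagen chains (coloured by class). The 3 main type VI chains stand above the grey points around them, whereas *Col4a2* and *Col5a3* lie where low counts spread the grey points widely.

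GC content moved with the ratios across the table. The tested chains had a median transcript GC of 56.3%, against 50.1% over all tested genes, and 24 of the 28 lay above the latter. Median log2 ratios of GC deciles ran from -0.090 to 0.10. After subtraction of each decile's median, an alternative added after the data were seen, 13 chains were higher and 2 lower, and the median of the chains was 0.19. The second chain then lower was *Col3a1*, at -0.041. The sign of *Col3a1* thus changed with the scaling. The shares of all tested genes called after this subtraction were not computed.

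Genes that make, trim, bind or cut collagen were called in both directions. Of 51 such genes, 41 were tested. Of these, 12 were higher and 11 lower past counting error, both larger shares than the 22.2% and 20.1% of all tested genes. Their median log2 ratio was 0.044, and 0 passed 2-fold in either direction. A difference between this list and the chains was not tested, and the counts of its sublists are read against the same background. Among hydroxylases and folding factors, 7 of 16 tested were lower and 2 higher. *P4hb*, a subunit of prolyl 4-hydroxylase, had 29234 counts in control and 20151 in *Myl3*-KO, a ratio of -0.15 (-0.18 to -0.12). *Serpinh1*, the collagen chaperone HSP47, had 14949 and 10603 counts, a ratio of -0.11 (-0.15 to -0.074). The catalytic subunits of the same hydroxylase, picked after the values were seen, went both ways. *P4ha1* had 6450 and 3428 counts, a ratio of -0.53 (-0.59 to -0.47), and *P4ha2* had 1355 and 648, a ratio of -0.68 (-0.82 to -0.54). *P4ha3* was higher, with 393 and 370 counts and a ratio of 0.30 (0.090 to 0.51).

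Propeptide cleavage and crosslinking went both ways, with 5 of 10 tested genes higher and 2 lower. *Pcolce*, the enhancer of C-propeptide cleavage, had 16642 and 12994 counts, a ratio of 0.029 (-0.0042 to 0.062). *Lox*, which crosslinks fibrils, had 8837 and 5651 counts, a ratio of -0.26 (-0.31 to -0.21). The propeptide proteinases named next were picked after their values were seen. *Adamts2*, an N-propeptide proteinase, had 900 and 1184 counts, a ratio of 0.78 (0.66 to 0.91), and *Bmp1*, the C-propeptide proteinase, had 1091 and 1220, a ratio of 0.55 (0.43 to 0.67). *Adamts14*, of the same family as *Adamts2*, had 203 and 220 counts, a ratio of 0.50 (0.22 to 0.78), and *Adamts3* had 81 and 61, a ratio of -0.023 (-0.53 to 0.47) that did not pass. Of the 4 secretion genes, 2 were higher and 1 lower. *Creb3l2*, a transcription factor of the secretory pathway, had 1946 and 1936 counts, a ratio of 0.38 (0.29 to 0.47), and *Sec24d*, a coat protein of export vesicles, had 1899 and 1438, a ratio of -0.015 (-0.12 to 0.084).

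Among receptors, 2 of 7 tested were higher and 1 lower. *Itgb1*, the β1 integrin, had 19152 and 13685 counts, a ratio of -0.099 (-0.13 to -0.067). *Mrc2*, an endocytic collagen receptor, had 4182 and 3725 counts, a ratio of 0.22 (0.15 to 0.28). Of the collagenases and gelatinases, 1 of 4 tested was higher and 0 lower. *Mmp14*, a membrane-bound collagenase, had 4997 and 4834 counts, a ratio of 0.34 (0.28 to 0.40), whereas *Mmp2*, a gelatinase, had 565 and 408, a ratio of -0.084 (-0.27 to 0.10). *Mmp13*, the collagenase of cartilage, had 2 and 4 counts.

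**Figure D5:**
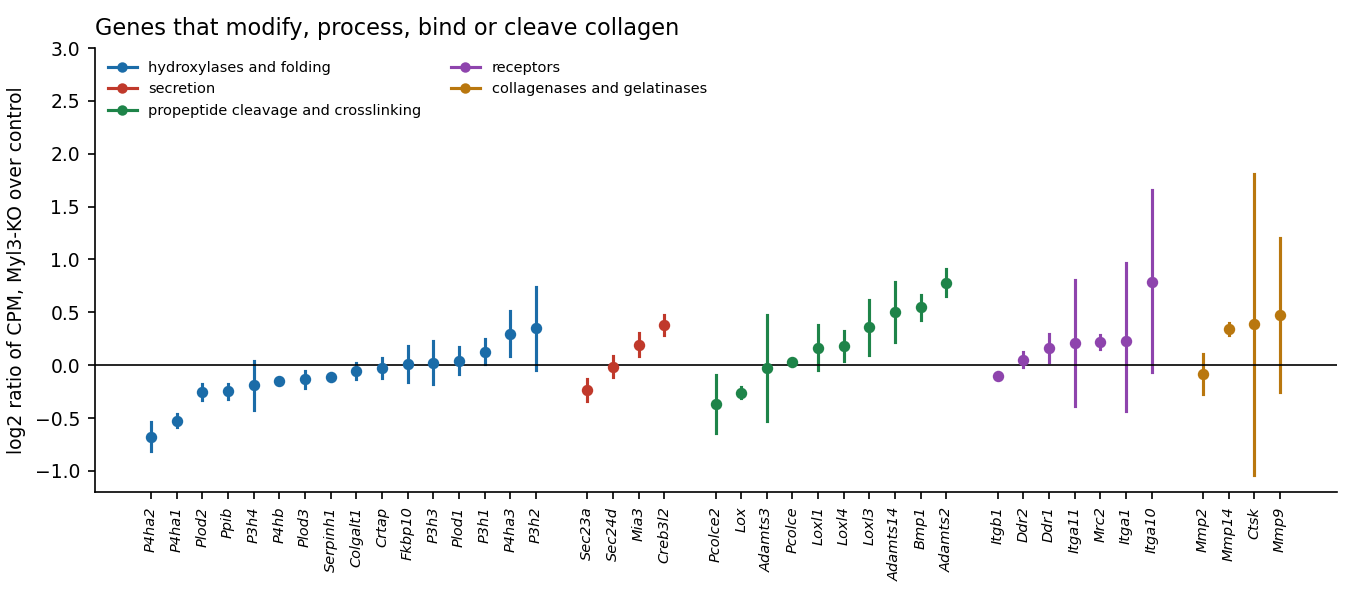
Log2 ratio of CPM, *Myl3*-KO over control, with 95% counting intervals, of the 41 tested genes that modify, secrete, process, bind or cleave collagen, ordered by ratio within each list. *P4ha2* and *P4ha1* lie lowest among the hydroxylases and *Adamts2* lies highest among the cleavage and crosslinking genes.

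Some markers of other cells differed between the libraries as well, and their part in the collagen differences was not tested. The counts of called markers stand beside the same 22.2% and 20.1% of all tested genes, and the lists are short. Of 8 tested markers of fibroblasts and perichondrium, 4 were higher and 3 lower past counting error, and the summed level of the list was 3837 CPM in control and 4228 in *Myl3*-KO, with *Thy1* at 0 in both. Those higher were *Pdgfrb*, with 3689 and 4617 counts and a ratio of 0.71 (0.65 to 0.77), *Pdgfra*, *Prrx1* and *S100a4*. The last 3 had ratios of 0.61 (0.25 to 0.97), 0.23 (0.21 to 0.26) and 0.071 (0.045 to 0.097). Those lower were *Postn*, with a ratio of -0.075 (-0.12 to -0.035), *Dcn* and *Lum*. The small proteoglycans *Dcn* and *Lum*, which bind fibrils, were lower past 2-fold. *Dcn* had 631 and 155 counts, a ratio of -1.64 (-1.90 to -1.38), and *Lum* 272 and 81, a ratio of -1.36 (-1.74 to -0.999). *Fmod*, a relative of *Lum* on the chondrocyte list, had 19 and 4 counts, a ratio of -1.86 (-3.88 to -0.27). Of the 5 tested chondrocyte markers, 0 were higher and 2 lower, and the list summed to 102 and 88.0 CPM. Of 5 tested osteoblast markers, 2 were higher and 2 lower at 257 and 260 CPM in all. *Alpl*, the alkaline phosphatase of mineralising cells, had 46 and 7 counts, a ratio of -2.33 (-3.72 to -1.17), and *Runx2* had 2952 and 2443 counts.

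*Cdh15*, a cadherin of muscle precursors, had 73 and 290 counts, a ratio of 2.38 (2.001 to 2.77), and was the only tested gene of the skeletal muscle list. The muscle genes *Myod1*, *Myog*, *Myf5*, *Pax7*, *Des* and *Actc1* had 0 counts in both libraries. The endothelial list summed to 1.65 and 2.89 CPM with *Cdh5*, *Tie1* and *Emcn* at 0 in both, and the immune list to 5.06 and 4.67 with *Adgre1* at 0. The Schwann and neural list summed to 3.35 and 5.34 CPM with *Sox10* at 0. The keratinocyte and epithelial list summed to 0.681 and 0.371 CPM with *Epcam* at 0. Smooth muscle and pericyte genes summed to 31.8 and 27.4 CPM, with *Acta2* at 172 and 127 counts. Each of these summed levels was far below that of the fibroblast list in the same library. In control that sum came mostly from *S100a4*, *Prrx1* and *Postn*, at 1506, 1401 and 662 CPM. *Thy1*, *Fap* and *Dpt* of the same list had 0, 1 and 5 counts there.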

How the data were processed

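RNA from cultured cells of control and *Myl3*-KO mice, labelled as rib chondrocytes, 1 library each, was sequenced by the authors. The labels name a SMARTER mRNA library kit, whereas the study's methods describe enrichment with oligo beads. The submitters' processing notes name GRCm38 and mm10, and the aligner, counter and strand setting were not given in the sources used here. The table deposited by the authors holds expected counts, which are unnormalized estimates of the reads from each gene and were whole for the collagen chains. The deposited FPKM values, reads per length and library depth, were used to compare levels between chains. The control columns carry the heading NC, read as control because the other columns carry KO. The annotation columns of the table, apart from the symbol, were not used in any result.

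For intervals, expected counts were rounded to whole numbers and divided by the library totals of 17612435 and 13477977. Intervals of log2 ratios were exact conditional binomial (Clopper-Pearson) at 95%, over the 12431 genes whose 2 counts summed to at least 10, leaving 9725 untested. Counts under 3 were raised to 3 in ratios, and no ratio was computed where both were at or under 3. PCR duplicates cannot be seen, so intervals cover counting error only. No genotype effect was tested in the main comparison, since 1 library per group leaves no residual degrees of freedom. TMM (edgeR 4.0.16) and size factors (DESeq2 1.42.0) were alternative scalings, and edgeR's exact test with preset coefficients of variation of 0.2 and 0.4 was a further alternative, in R 4.3.3, whose p compares these libraries under an assumed spread. Other alternatives were totals without the chains or without the 10 most abundant genes, other filters, limits and interval levels, FPKM ratios and a GC correction. Intervals used scipy 1.17.1, tables pandas 2.3.3 and numpy 2.4.6, and plots matplotlib 3.10.9, under Python 3.11.15. The scripts were tested on simulated data.

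Chains were grouped by structural class from general knowledge, and gene positions came from GENCODE M21, in which 21881 of 21910 Ensembl identifiers were found. Values are given for chains past 2-fold, the 3 highest by mean FPKM in each class, *Col2a1*, *Col10a1*, partner chains and further chains. In each other list they are given for genes past 2-fold, the 2 with most counts and further genes. The members, gene lists and tests were chosen with earlier results of these data known.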

Additional observations from a re-analysis of the deposited data

How the results depend on the processing

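Across scalings by TMM, DESeq2 size factors, totals without the chains and totals without the 10 most abundant genes, and with no count filter or 1 added count, 15 or 16 chains were higher past counting error, 1 lower, 2 past 2-fold higher and 0 past 2-fold lower, and the median lay between 0.23 and 0.27. With at least 10 counts in each library 1 chain was past 2-fold higher, *Col4a2* having too few in the control, and at a log2 limit of 0.5 there were 8. At 99% intervals 14 chains were higher and 0 lower, so the call of *Col4a5* was lost. Subtracting GC decile medians, added after the data were seen, gave 13 higher and 2 lower and a median of 0.19. Apart from the 0.5 limit, shares of all tested genes were not computed for the alternatives in this paragraph. With a preset coefficient of variation of 0.2, 3 were higher and 0 lower, and with 0.4, 1 was higher and 0 lower. The collagen share became 0.865% in control and 1.09% in *Myl3*-KO as a share of summed FPKM, and 2.654% in *Myl3*-KO over Ensembl rows only, against 2.645% over all rows. For single chains, 242 of the alternative ratios kept their call or, as FPKM ratios, lay within the interval, 2 gained one (*Col3a1*, at 0.025 without the 10 most abundant genes and -0.041 after GC subtraction), 2 lost one (*Col7a1* and *Col18a1* after GC subtraction), and 3 moved beyond their interval as FPKM ratios, *Col3a1* to -0.032, *Col6a3* to 0.63 and *Col22a1* to -1.72. The cause of these changes was not tested. No paired analysis was possible because each genotype had 1 library. Chains under 10 counts and all statements about genotype are limited by depth and by the single library.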

Other observations

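The length that the deposited FPKM implies for a gene (its count divided by its FPKM and the library total) was 4100 bases for *Col6a1* in both libraries, near its annotated transcript length of 4100. For *Col22a1* it was 2237 bases in control and 8903 in *Myl3*-KO, for *Col15a1* 2103 and 3710, and for *Col23a1* 2449 and 3298. These 3 chains have few counts and FPKM rounded to 2 decimals. Among chains with many counts, the implied length of *Col5a2* and *Col1a1* was near the annotated 6625 and 5930 bases. For *Col6a3* it was 6273 and 6501 against an annotated 10106, and for *Col3a1* 4158 and 4286 against 5564. Comparisons of FPKM between chains rest on these lengths. Why the implied lengths differ was not tested.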
